A study of Mus musculus with 6 samples.

Results

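A stretch of mouse chromosome 13 that is built from repeated genes held 10 regions that were more methylated in Neil3 knockout than in wild type hippocampus. The members are the called CG regions of the authors' table lying between 65762042 and 66418825 on chromosome 13 (GRCm38), and they number 10 of the 230 regions in that table. The members were chosen by their position and their authors' group means, since the stretch was singled out for regions that all differed in one direction, so their number, direction and levels describe how they were chosen and were not tested. Whole-genome bisulfite sequencing gave the methylation of CpGs in DNA from CA1, a field of the hippocampus that was laser-microdissected from frozen 8 µm brain sections. One group was 3 wild type C57Bl6 mice, and the other was 3 Neil3-/- mice on the C57Bl6 background, which lack the DNA repair enzyme NEIL3. All animals were untreated males, 3 to 6 months old, from the home cage. The labels do not give the design of the knockout allele or whether the wild type mice were littermates. The table gives 1 mean level per group and region, without coverage or values for single animals, so the depth is unknown and no spread between animals can be given. A list of regions holds no cell markers, so the dissected cells could not be checked against the label CA1.

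In mammals DNA methylation sits mainly on the cytosine of CpG dinucleotides, and repeated sequence is usually kept methylated. Vmn2r genes encode type 2 vomeronasal receptors, which sense pheromones in the vomeronasal organ, and many copies in the mouse genome are pseudogenes. KRAB zinc finger genes, which encode DNA-binding repressors that recruit silencing machinery to transposable elements, also lie in arrays of near copies. 2410141K09Rik is such a zinc finger gene, and together with its neighbour Gm10324 it has been described in mouse as a suppressor of endogenous retroviruses. NEIL3 is a DNA glycosylase of the base excision repair pathway.

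The repeats can be seen in the sequence at the gene starts. The 2410141K09Rik start and those of the 3 other genes in the stretch with a similar start are shown from 250 bases before to 50 after the start, 5′ to 3′ on the gene's strand, from RefSeq (GRCm38.p6). They are given because they show how alike the copies are, and capitals mark the CpG dinucleotides. The windows lie at chr13:66441069-66441368 on the minus strand for 2410141K09Rik and, on the plus strand, at chr13:66113203-66113502 for Gm10324, chr13:65950339-65950638 for Gm46425 and chr13:65896933-65897232 for Gm17353.
2410141K09Rik: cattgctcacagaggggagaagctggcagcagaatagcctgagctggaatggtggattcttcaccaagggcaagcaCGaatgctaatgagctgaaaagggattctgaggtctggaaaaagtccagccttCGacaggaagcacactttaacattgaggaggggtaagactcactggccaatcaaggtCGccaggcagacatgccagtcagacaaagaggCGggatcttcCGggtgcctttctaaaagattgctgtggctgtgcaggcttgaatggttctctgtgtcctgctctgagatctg
Gm10324: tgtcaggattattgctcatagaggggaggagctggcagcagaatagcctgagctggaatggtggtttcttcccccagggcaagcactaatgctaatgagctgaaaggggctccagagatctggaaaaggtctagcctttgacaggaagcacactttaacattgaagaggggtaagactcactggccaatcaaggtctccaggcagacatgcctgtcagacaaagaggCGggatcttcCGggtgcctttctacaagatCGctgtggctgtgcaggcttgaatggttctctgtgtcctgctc
Gm46425: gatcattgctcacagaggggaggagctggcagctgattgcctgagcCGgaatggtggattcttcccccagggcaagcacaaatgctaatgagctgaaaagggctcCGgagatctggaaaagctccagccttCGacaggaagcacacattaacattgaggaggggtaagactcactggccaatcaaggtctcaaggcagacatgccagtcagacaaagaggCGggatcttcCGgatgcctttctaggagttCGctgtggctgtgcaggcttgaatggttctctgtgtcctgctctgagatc
Gm17353: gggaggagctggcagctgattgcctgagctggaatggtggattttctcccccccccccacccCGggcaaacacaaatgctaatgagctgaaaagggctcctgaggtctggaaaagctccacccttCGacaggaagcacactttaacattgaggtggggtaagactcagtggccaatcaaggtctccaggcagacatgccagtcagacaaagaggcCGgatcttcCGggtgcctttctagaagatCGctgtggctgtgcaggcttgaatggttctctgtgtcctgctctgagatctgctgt

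The 2410141K09Rik window aligned to 10 other windows among the 32851 of the RefSeq promoter table, counting alignments of at least 200 bases with at least 80% identity. All 10 were on chromosome 13, between 65348545 and 66681053, with 3 of them inside the stretch and 7 on either side of it. Their identity was 89.6% to 95.0% over 240 to 298 aligned bases. End to end, the Gm10324 window differed from that of 2410141K09Rik at 20 of 291 aligned bases, the Gm46425 window at 21 of 297 and the Gm17353 window at 20 of 285. Among the copies outside the stretch, Gm45966 was the closest, with 14 differences in 282 aligned bases. The CpGs were less constant than the sequence around them. Of the 5 CpGs in the 2410141K09Rik window, 2 were a CpG at the aligned place in Gm10324, 3 in Gm46425 and 2 in Gm17353. DNA had been sheared to about 250 bp before sequencing, per the labels' protocols, so the aligned lengths are close to that of a fragment. How reads were shared between copies was not tested.

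The motif CCAAT, searched on both strands with no other motif, was in all 11 windows of this family, and in 12289 of all 32851 promoter windows, or 37.4%. The 11 windows are copies of one another and are not independent. It was also in all 12 promoter windows of the stretch, some of which are the same copies or overlap. The 2410141K09Rik window is counted among these 12 because its gene reaches into the stretch. That window itself lies 22.2 kb beyond the last region, past the end of the stretch. Those 12 windows belong to 11 genes and held 1 to 6 CpGs each, with a median of 4.5 against 7 in all windows.

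The annotation of the stretch is largely pseudogenes. Of the 27 RefSeq genes that reach into it, 15 are pseudogenes (55.6%), against 21.2% of the 49603 genes of the annotation. Another 6 are protein coding, 5 are long noncoding RNAs and the remaining one is a small nucleolar RNA. The Vmn2r pseudogenes Vmn2r-ps98, Vmn2r-ps99, Vmn2r-ps100, Vmn2r-ps102, Vmn2r-ps103 and Vmn2r-ps104 make up 6 of the 27, or 22.2%, against 0.546% of all genes. Of the 10 regions, 7 overlapped a gene (70%), against 44.3% of all 230 regions and 50.9% of those outside chromosome 8. A region lay in 7 of the 27 genes, whereas 69 of all 49603 genes (0.139%) held one, but the stretch was chosen for holding regions. These were 4 of the 15 pseudogenes (Vmn2r-ps98, Gm38428, Rybp-ps and Gm17514), 2 of the 5 long noncoding RNA genes (Gm26715 and Gm33043) and 1 of the 6 protein-coding genes, 2410141K09Rik.

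**Figure D1:**
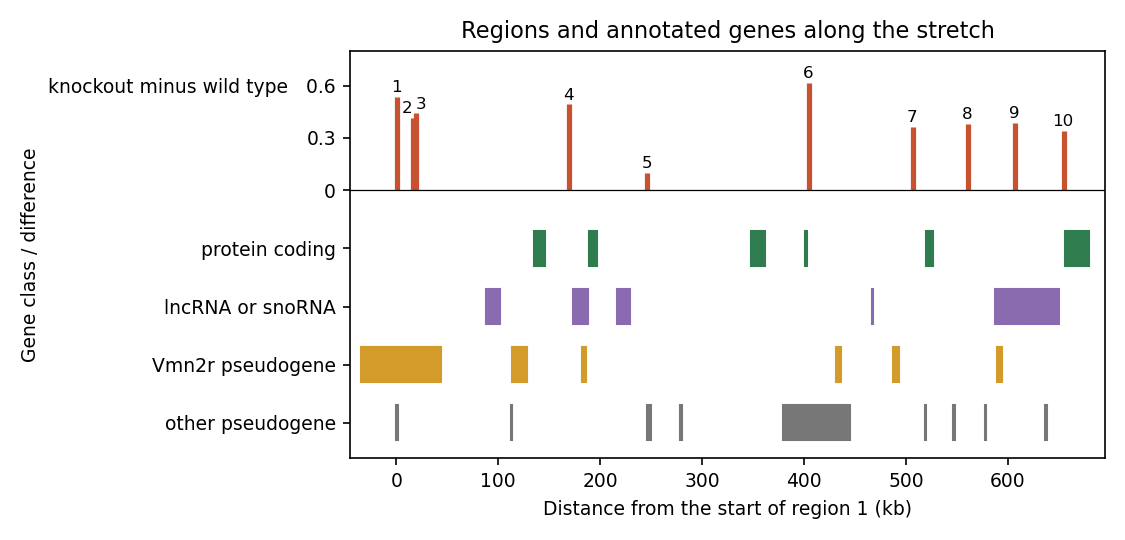
Map of the stretch, with the distance from the start of region 1 in kb on the x axis. Bars at the top give the knockout minus wild type difference of the authors' group means for each of the 10 numbered regions, and the blocks beneath are annotated genes by class (genes under 1.5 kb are drawn 1.5 kb wide); regions 1 to 3 lie in 1 pseudogene, and the others are spread over the rest of the stretch.

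All 10 regions were higher in the knockout, against 29.1% of all 230 regions and 54.5% of the 112 regions outside chromosome 8, the chromosome of Neil3, where nearly all regions were lower. These shares are given as background only, since direction entered the choice of the stretch. Wild type levels ran from 0.168 to 0.502 with a median of 0.336, and knockout levels from 0.388 to 0.863 with a median of 0.780. These are fractions of methylated CpG from 0 to 1, as means per group by the authors. Of the 10 knockout means, 9 were above the highest wild type mean, and the exception was the region in Rybp-ps. The ratio of knockout to wild type level ran from 1.35 to 4.59 and the difference of the means from 0.1002 to 0.615.

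**Figure D2:**
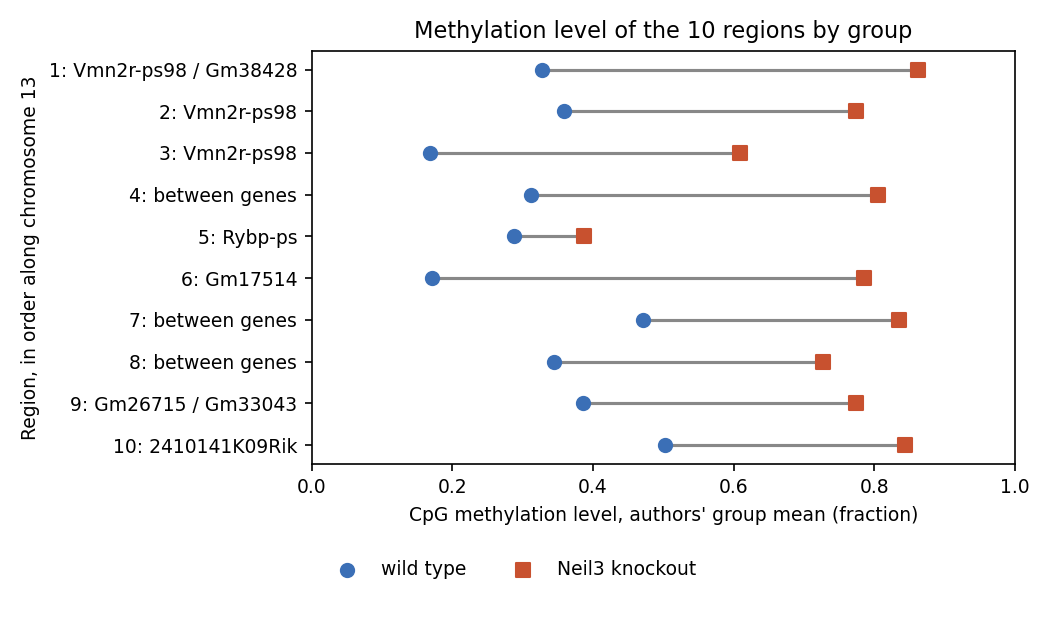
Authors' group mean of CpG methylation (x axis, fraction) in wild type (circles) and Neil3 knockout (squares) for each of the 10 regions, in order along the chromosome with the genes each overlaps. There are no error bars because no values per animal were given; all squares lie to the right of their circles, and region 5 in Rybp-ps has the shortest line, from 0.288 to 0.388.

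Vmn2r-ps98, a vomeronasal receptor pseudogene annotated at 65727793 to 65805531, held the first 3 regions, all well inside its bounds. Region 1, at 65762042 to 65763384, had authors' group means of 0.328 (wild type) and 0.863 (knockout), the latter being the highest knockout level of the stretch. It was also the sparsest of the 10, with 23 CpGs in 1343 bp, or 1.71 CpGs per 100 bp. Its first 654 bases overlap Gm38428, a pseudogene of 847 bp.

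Region 2, at 65777835 to 65778059, had a wild type level of 0.359 and a knockout level of 0.774. It was the shortest of the 10 and packed 30 CpGs into 225 bp, or 13.3 per 100 bp. Region 3, at 65781044 to 65781502, began 2.98 kb beyond it and had the lowest wild type level of all, 0.168, beside a knockout level of 0.610. Regions 1 and 2 thus had similar wild type levels at CpG densities far apart, while regions 2 and 3, neighbours in the same pseudogene, differed in both groups. The region with the smallest q-value of these 3 in the authors' deposited table was region 3 (q = 9.78e-08), followed by region 2 (q = 0.00671) and region 1 (q = 0.00685).

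Region 6 lay inside Gm17514, a pseudogene at 66141540 to 66207074 that also spans Vmn2r-ps102. At 66166171 to 66166621 wild type animals averaged 0.171 and knockout animals 0.786 by the authors' means, the largest difference of the stretch. It also had the fewest CpGs, 14 in 451 bp, and the authors' deposited table gives it a q of 0.0172. By the size of its gain it ranked 17 among the 67 of all 230 regions that were higher in the knockout in the authors' deposited table.

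Rybp-ps, by its name a pseudogene of Rybp, which encodes a Polycomb-associated protein, held region 5 at 66007638 to 66007987. The region starts 2 bases before the lower bound of the pseudogene (66007640 to 66012021) and lies at that edge. It had the densest CpGs of the 10, 59 in 350 bp or 16.9 per 100 bp. Its authors' group means were 0.288 (wild type) and 0.388 (knockout), the smallest difference and the only knockout level of the stretch under 0.6. It is also the one member where the sources disagree. The authors' deposited table gives it a difference of 0.180, whereas the means differ by 0.1002. In the other 9 members these differed by less than 0.001. Its q of 0.000105 in the authors' deposited table therefore belongs to a difference of uncertain size.

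2410141K09Rik, the KRAB zinc finger gene at 66418114 to 66441118, is the protein-coding gene among those with a region, and the only gene of the stretch in the authors' second table of 36 genes. Region 10, at 66416240 to 66418825, had group means of 0.502 (wild type) and 0.844 (knockout) by the authors, and the smallest q of the stretch in the authors' deposited table (q = 2.97e-09). It was the longest of all 230 regions at 2586 bp, and its 106 CpGs were 26.0% of the 407 CpGs in the 10 regions. Only 712 of its bases fall inside the gene, and the other 1874 lie beyond its lower bound. RefSeq places the gene on the minus strand, so this is the gene's 3′ end and the flank beyond it. The nearest of the 4 transcription starts in the authors' second table, at 66419597, lay 772 bases from the region, and the farthest, at 66441118, lay 22.3 kb away. The start whose sequence is shown above therefore held no called region.

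Region 9, at 66368217 to 66369284, fell in 2 long noncoding RNA genes, within Gm26715 (66349406 to 66412059) and over the lower end of Gm33043 (66368764 to 66370696). Its authors' group means were 0.386 (wild type) and 0.774 (knockout). Gm33043 is on the minus strand in RefSeq, so its 3′ end is the part that overlaps. The Gm33043 start was nevertheless the nearest of all promoter windows to any member, at 1.36 kb.

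The other 3 regions lay between annotated genes. Region 4, at 65931259 to 65931667, had group means of 0.312 and 0.805 (wild type, then knockout) and lay 3.99 kb from the long noncoding RNA gene Gm32476. Region 7, at 66268150 to 66269107, had a wild type mean of 0.471 and a knockout mean of 0.835, and its nearest gene was the pseudogene Gm21029, 11.4 kb away. Region 8, at 66322338 to 66323510, had group means of 0.344 and 0.727 in the same order and lay 13.04 kb from the pseudogene Gm18260. Levels in these regions were within the range of those in genes. Region 7 had the largest q of the 10 in the authors' deposited table, 0.0462, while regions 4 and 8 had q = 0.00025 and q = 0.0214 there.

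The 12 promoter windows of the stretch cover 11 of its 27 genes, and of the 7 genes with a region they cover Gm26715, Gm33043 and 2410141K09Rik. Vmn2r-ps98, Gm38428, Rybp-ps and Gm17514 have no window, so their starts could not be compared with the regions. None of the 12 windows shared a base with a region. The nearest were those of Gm33043, at 1.36 kb, and Gm45965, a protein-coding gene whose window lay 3.16 kb from region 6. Those of the zinc finger gene family shown above were farther, 18.7 kb for Gm46425, 22.2 kb for 2410141K09Rik, 34.0 kb for Gm17353 and 52.7 kb for Gm10324. The 12 windows held 0.333 to 2 CpGs per 100 bp, and 9 of the 10 regions, all but region 1, were denser than any of them. This is not particular to the stretch, since the lower quartile of density over all 230 regions was 3.21 CpGs per 100 bp.

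The regions were spaced far more widely than they were long. From the first start to the last end the stretch is 657 kb, of which the regions cover 9022 bp, or 1.37%. The gaps between neighbours were 14.5 and 2.98 kb inside Vmn2r-ps98, followed by 150 kb, 76.0 kb, 158 kb, 102 kb, 53.2 kb, 44.7 kb and 47.0 kb. Thus the last 4 regions were the most evenly spaced, and the median gap was 53.2 kb. In another group of neighbours outside chromosome 8, 15 regions near the end of Y, the median gap was 0.958 kb over 111 kb and the directions were mixed, with 9 higher and 6 lower in the knockout by the group means (8 and 7 by the difference in the authors' deposited table). No further called region was near. The closest on chromosome 13 lay 44.9 Mb below, in Aoah, with 0.379 (wild type) and 0.777 (knockout), and 53.1 Mb above, where 3110070M22Rik and Tmem267 adjoin, with 0.396 (wild type) and 0.215 (knockout).

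CpG density differed 9.84 times between the densest and the sparsest member, from 16.9 to 1.71 CpGs per 100 bp, which is 1 CpG every 5.93 or 58.4 bp. The median was 4.29, against 6.73 over the 51 other regions that were higher outside chromosome 8 and 5.40 over all 230. Regions 2 and 5 stood apart at over 13 per 100 bp, regions 3 and 4 had 6.75 and 6.11, and regions 6 to 10 all had between 2.90 and 4.49. Members were also longer, with a median of 709 bp against 423 bp in those 51 regions. Of the 10, 4 exceeded 1 kb, against 24 of all 230 regions and 11 of the 112 outside chromosome 8, members included. These medians were not tested, since the regions of a stretch are not independent.

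Wild type levels in the stretch were intermediate. None of the 10 had a wild type mean under 0.1, against 23 of all 230 regions (10%) and 22 of the 51 other higher regions outside chromosome 8. Those 51 had a median wild type mean of 0.132 and a median knockout mean of 0.688, against 0.336 and 0.780 in the stretch. A wild type mean of 0.15 to 0.55 together with a knockout mean over 0.6 was found in 9 of the 10 members. It was found in 14 of those 51 and in 26 of all 230 regions (11.3%). The wild type bounds enclose all 10 members, whose levels entered the choice of the stretch, so these counts are a description only. The median difference of the means was 0.401 in the stretch and 0.475 in the 51. None of these medians was tested.

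**Figure D3:**
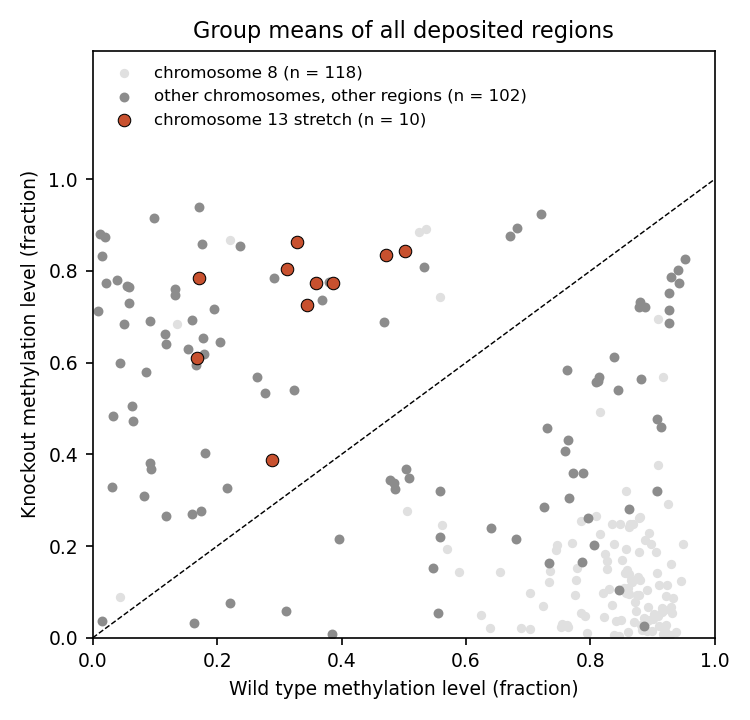
Authors' group means of all 230 regions, wild type on the x axis and knockout on the y axis (fractions), with the dashed line marking equal levels. The 10 regions of the stretch lie above the line between 0.168 and 0.502 in wild type, while 22 of the 51 other higher regions outside chromosome 8 lie under 0.1.

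Members with fewer CpGs had larger differences. Over the 10 regions the rank correlation of CpG number with the difference of the means was −0.96 (Spearman's rho; Pearson's r = −0.60), and without region 10, the one with most CpGs, it was −0.97 over 9 (Pearson's r = −0.97). The 51 other higher regions outside chromosome 8 had the same sign, with rho = −0.62 and r = −0.49. These are descriptions with no test, because all points come from the same 6 animals and were called together. Only called regions are listed, with q of the authors up to 0.0475 and at least 10 CpGs over all 230. A small difference over few CpGs may not have been called, and how far calling shaped this relation was not tested. With CpG density in place of number, rho over the 10 was −0.38.

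**Figure D4:**
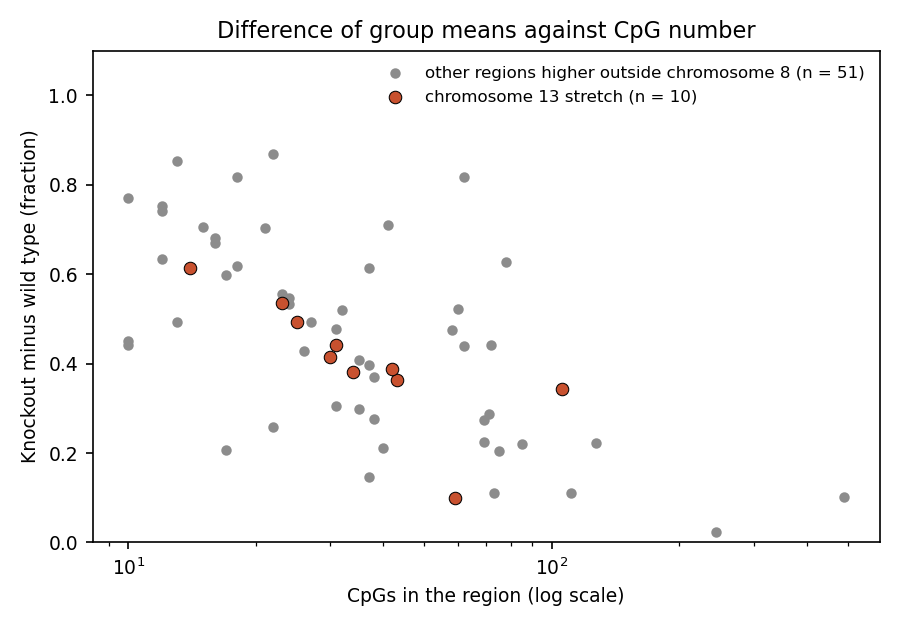
Difference of the authors' group means, knockout minus wild type (y axis, fraction), against the number of CpGs in the region (x axis, log scale), for the 10 regions of the stretch and the 51 other regions higher outside chromosome 8. Members run from 0.615 at 14 CpGs to 0.342 at 106 CpGs, with Rybp-ps lowest at 0.1002 and 59 CpGs.

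3 gene lists related to the stretch were counted for called regions. Of 271 annotated Vmn2r genes and pseudogenes, Vmn2r-ps98 was the 1 with a called region, 0.369% of them, against 69 of all 49603 genes, 0.139%. Vmn2r-ps98 belongs to the stretch, which was chosen for holding regions, so the Vmn2r share is a description only. The 5 other Vmn2r pseudogenes of the stretch lay 12386 to 41525 bp from the nearest region. Among 14 genes of zinc finger silencing, which include the corepressor Trim28, the histone methyltransferase Setdb1, the zinc finger repressors Rsl1, Rslcan18 and Zfp57, and Gm10324, 0 held a region. That list leaves out 2410141K09Rik, the zinc finger gene that region 10 overlaps, so its count of 0 depends on this choice. Among 13 genes of DNA methylation and its removal, such as Dnmt1, Dnmt3a, Tet1 and Tdg, the count was also 0. These genes include Neil1 and Neil2 but not Neil3, the gene knocked out here. At the share of 0.139% over all genes, lists this short would be likely to hold none, so these counts do not set the lists apart. The table lists called regions only, so levels in these genes were not analysed here.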

How the data were processed

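Reads from bisulfite-converted CA1 DNA were aligned with BSMAP to GRCm38 (mm10), per the submitters' processing notes. Not given in the sources used here are the caller of the regions, the coverage minimum and how q-values were adjusted. Levels, as deposited by the authors, are a fraction from 0 to 1, 1 mean per group by the authors. The deposited q-value and the deposited difference (a score from the first group minus the second, printed here with its sign turned) are the authors' own. The number of CpGs is a count per region in the deposited table. The percent GC content of genes in the authors' second table was not used. Wild type is the first group by the sheet title alone. The labels give the molecule as RNA, whereas the protocol describes DNA.

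Lengths count both bounds; whether positions start at 0 or 1 is not given. Genes are 49603 from RefSeq GRCm38.p6, leaving out scaffold entries under 3 Mb (Y excepted). Gene strands were read from its promoter table. A region was put in a gene when they shared at least 1 base. Promoter windows were aligned with BLAST 2.17.0 (plus strand) and end to end with Biopython 1.88. Overlap, spacing and joining were checked on simulated regions. No test was run, because the members were chosen on these values and no values per animal were given. The stretch, the lists of genes and the naming rule were chosen with earlier results of these data known. Every region of the stretch is described, with the genes it overlaps or lies nearest to. Alternatives were limits on q-value, difference and CpG number, joining of neighbours, a wider window, the source of the difference, gene bounds and CpG weighting.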

Additional observations from a re-analysis of the deposited data

How the results depend on the processing

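Over 9 alternatives, 52 of 54 recomputed values stayed within 1.5 times the count or within 1 SD between the 10 regions, a spread over regions and not over animals. That SD was wide for the gap (55.0 kb) and for the density (4.92 CpGs per 100 bp), so staying within it says little there. All regions kept in the stretch were higher in the knockout in each, also by the difference of the group means. The limits and the joining act on the same 10 regions, all higher, so they could not have changed the direction. The number kept was 7 (70%) with q-values of the authors under 0.01. That limit was met by 88.3% of all 230 regions and 78.4% of the 51 other higher regions outside chromosome 8. The number was 9 with a difference of at least 0.3, with at least 20 CpGs or with neighbours within 10 kb joined. At least 20 CpGs were held by 67.0% of all 230 regions. A window 1 Mb wider on each side added none. The median wild type level was 0.328 to 0.344, the median knockout level 0.774 to 0.786 and the median difference 0.388 to 0.414. Means weighted by CpG number were 0.374 (wild type) and 0.734 (knockout), and that of the differences as the authors' deposited table gives them was 0.371. The median gap was 50.1 to 64.6 kb and the median density 4.10 to 6.11 CpGs per 100 bp. With the bounds of the authors' second table, which lists 36 genes and not Vmn2r-ps98, 1 region in place of 7 overlapped a gene and 0 in place of 3 lay in Vmn2r-ps98. The unknown coverage limits every level. No paired analysis was possible because the table holds group means only, and for the same reason no animal could be left out in turn.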
